A study of Drosophila melanogaster with 9 samples.

Results

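Pinching of a larva with forceps is taken here as a closed crush, whereas a clean injury with a tungsten needle opens the cuticle. The study saw small melanized spots on a minority of pinched larvae and proposes that pinching might do minor harm to tissues. The 3 arrays of larvae taken 4 h after pinching were set directly against the 3 arrays of larvae taken 4 h after clean injury, out of 9 arrays in the series. The other 3 arrays came from untreated larvae and are given beside them as a baseline. All larvae were *y w* larvae of the final instar, a strain with mutations in the body colour gene *yellow* and the eye colour gene *white*, and RNA was taken from the whole animal. Pinching had been done on the middle of larvae lying in water. The needle is described for larvae on a cold agar plate, in the account of bacterial pricking, and how larvae were held for the clean injury is not stated separately. Both kinds of larvae are then described as kept on apple juice agar. Forceps, water, needle and cold plate thus cannot be told apart from crush and puncture, and no array of larvae handled for 4 h without injury was used here.

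Insects meet a wound with clotting and melanization at the site, with a Jun kinase (JNK) response in the epidermis and with a humoral response, in which the fat body releases peptides into the hemolymph. Most of these peptide genes are driven by the IMD and Toll pathways. The IMD pathway, which senses the peptidoglycan of Gram-negative bacteria and ends at the NF-kB factor Relish, is the main driver of the diptericins, attacins and cecropins. The Toll pathway, which responds to fungi, Gram-positive bacteria and proteases in the hemolymph, is the main driver of Drosomycin and of the bomanins.

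Expression was read with Affymetrix Drosophila Genome 2.0 arrays, on which a probe set is a group of short probes for the transcripts of a gene. All levels below are log2 signals, and every difference is pinching minus clean injury, so that a negative value means a lower signal after pinching. Of the probe sets, 18769 were tested. Pinched and clean-injured larvae gave nearly the same profile. Arrays of the different injuries correlated over all probe sets with r = 0.992 to 0.997 where they carried the same replicate number and with r = 0.988 to 0.995 where they did not, and arrays of the same injury with r = 0.988 to 0.995. Arrays of either injury correlated with untreated arrays with r = 0.970 to 0.987, so that r was high in every comparison. The median difference was -0.0044, and the 5th and 95th percentiles were -0.24 and 0.20. A difference of at least 2-fold was found at 35 probe sets, 5 of them higher and 30 lower after pinching. Against untreated larvae, 573 probe sets differed by at least 2-fold after pinching and 641 after clean injury.

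The test was made with limma, which moderates each probe set's variance towards that of the others, and a probe set was called at an adjusted p under 0.05 (Benjamini-Hochberg over all probe sets tested). By this test 1 probe set was lower after pinching than after clean injury (0.00533% of those tested) and 0 were higher (0%). At an unadjusted p under 0.05 the counts were 205 lower (1.09%) and 107 higher (0.57%), and the methods' t-test, the test named by the study, called 0 in either direction after the same adjustment (212 lower and 184 higher before it). Against untreated larvae limma called 1727 probe sets after pinching (9.2%) and 1906 after clean injury (10.2%), in comparisons that share their control arrays. Arrays with the same replicate number deviated together, so a fit that removes the common level of each number (a replicate block) is given beside the first. With the replicate block 8 probe sets were lower (0.0426%) and 0 were higher (0%), and at an unadjusted p under 0.05 the counts were 482 (2.57%) and 197 (1.05%). With the block and only the 6 arrays compared, 13 were lower (0.0693%) and 1 was higher (0.00533%).

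Replicate 1 stood apart in each group in some of the controls. The 18S rRNA 5′ control read 9.04 on pinching replicate 1, 9.84 on clean injury replicate 1 and 5.27 on untreated replicate 1, against 11.86 to 12.09 on the other 6 arrays. For the actin control, the 3′ probe set exceeded the 5′ probe set by 3.37, 2.77 and 2.41 after pinching, by 3.38, 2.88 and 2.76 after clean injury and by 4.77, 3.02 and 2.61 in untreated larvae, with replicate 1 highest in each group. For the eIF4A control, the same excess was 3.27, 3.33 and 3.32 after pinching, 3.30, 3.70 and 3.56 after clean injury and 5.96, 3.66 and 3.47 in untreated larvae, so replicate 1 was the lowest of both injuries and the highest of the untreated arrays. *RpL32*, a ribosomal protein gene, was at 13.25, 13.36 and 13.40 after pinching and at 13.34, 13.32 and 13.35 after clean injury (95% interval of the difference -0.21 to 0.20). Without replicate 1 of every group, limma called 0 probe sets without the block, with 222 lower and 210 higher at an unadjusted p under 0.05, and it called 1 with the block, which was *Listericin*. The blocked fit had 447 lower and 608 higher at an unadjusted p under 0.05, so that more probe sets were higher than lower in it.

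The probe set called in the fit without the block reads *CG16772*, a gene on chromosome arm 2L that carries no other name in the annotation. Its signal was 5.29, 5.63 and 5.74 after pinching, 7.40, 7.08 and 7.52 after clean injury and 5.001, 5.07 and 4.98 in untreated larvae. No pinching array reached any clean injury array, and the pinching arrays lay just above the untreated ones. The level averaged 5.55 ± 0.24 after pinching and 7.33 ± 0.23 after clean injury (SD, n = 3 each), a 3.43-fold difference (log2 -1.78, SE 0.15, adjusted p = 0.00437 from limma and 0.00155 with the replicate block). Against untreated larvae, it was higher by 0.54 after pinching (adjusted p = 0.0491) and by 2.32 after clean injury (adjusted p = 1.51e-05). The call was kept in each of the 9 fits that left out 1 array, without and with the block. On the 6 arrays compared, it was kept with the block (adjusted p = 0.0104) and lost without it (adjusted p = 0.057). It was also lost without replicate 1 of every group (adjusted p = 0.133 with the block) and in the methods' t-test.

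**Figure D1:**
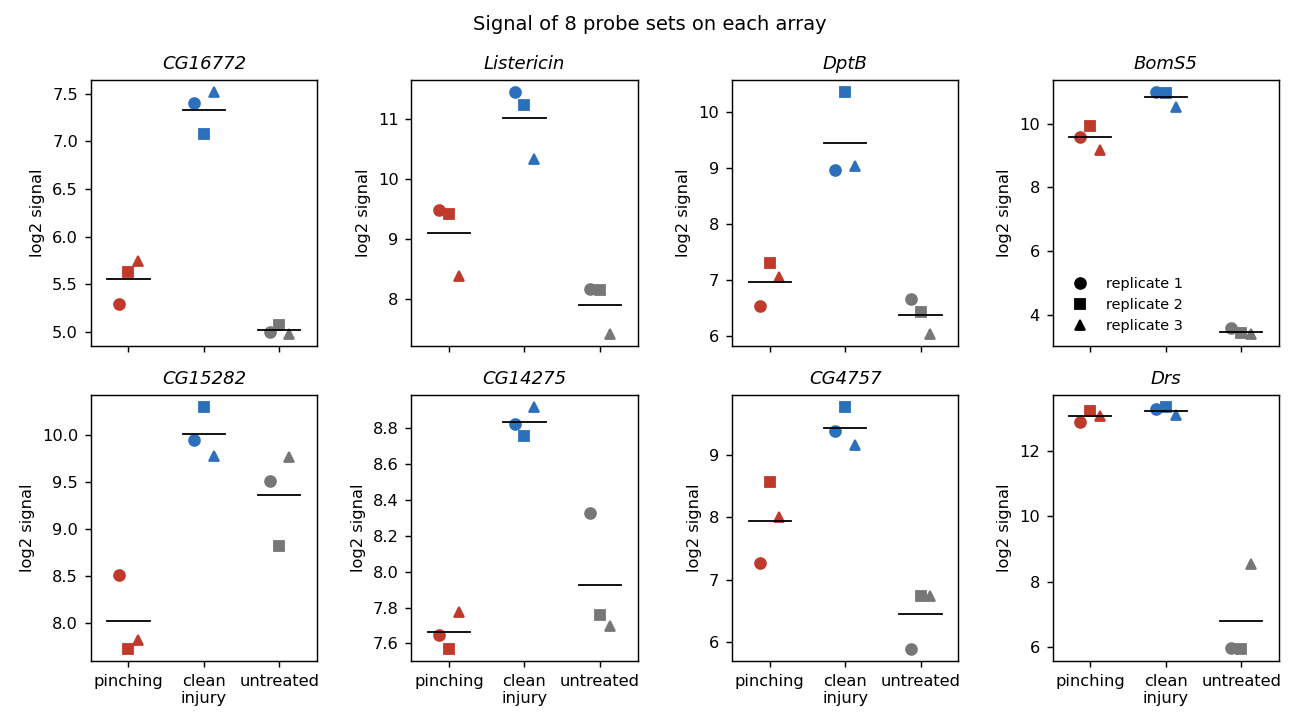
Log2 signal of 8 probe sets (vertical axes, each with its own range) on the arrays of pinched, clean-injured and untreated larvae. Each point is 1 array, its shape gives the replicate number, and the bar is the mean of 3 arrays. In the first 7 panels every pinching array lies below every clean injury array, whereas the *Drs* values of both injuries overlap near 13.

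With the block on 9 arrays or on the 6 arrays compared, 10 other named genes were called. Of these 10, 6 are immune effector genes, all lower after pinching. Further probe sets called only in fits that left out 1 array are not counted here. *Listericin*, which encodes an antibacterial peptide, was at 9.49, 9.41 and 8.39 after pinching, 11.45, 11.24 and 10.34 after clean injury and 8.16, 8.15 and 7.42 in untreated larvae. Replicate 3 was the lowest array of each group, and the pinching arrays stayed below the clean injury arrays by nearly the same step in each pair, -1.96, -1.83 and -1.95. The mean difference was -1.91 (SE 0.35 without and 0.11 with the block), or 3.76-fold, with an adjusted p of 0.422 without the block and 0.000166 with it. With the block, the call was kept in each of the 9 fits that left out 1 array and without replicate 1 of every group (adjusted p = 0.0248). Against untreated larvae, *Listericin* differed by 1.19 after pinching (adjusted p = 0.0661) and rose by 3.10 after clean injury (adjusted p = 0.000598).

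*DptB*, a diptericin gene whose product acts against Gram-negative bacteria, had the largest difference among probe sets whose groups did not overlap. It read 6.54, 7.31 and 7.06 after pinching, 8.96, 10.36 and 9.03 after clean injury and 6.67, 6.43 and 6.04 in untreated larvae. The values after pinching overlapped the untreated ones, and those after clean injury stood clear of both. The difference of -2.48 (95% interval -3.25 to -1.71), or 5.57-fold, had an adjusted p of 0.133 without and 0.0124 with the block. The call with the block was lost without clean injury replicate 1, pinching replicate 1 or pinching replicate 2, and also without replicate 1 of every group (adjusted p = 0.133). Against untreated larvae, *DptB* differed by 0.59 after pinching (adjusted p = 0.343) and rose by 3.07 after clean injury (adjusted p = 0.000598).

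*AttD*, which encodes an attacin, was at 5.20, 5.24 and 3.67 after pinching, 6.92, 7.32 and 6.92 after clean injury and 3.16, 3.52 and 4.67 in untreated larvae. Pinching replicate 3 was within the untreated range, and all 3 clean injury arrays were above every other array. The difference of -2.35 (SE 0.45) had an adjusted p of 0.422 without the block and 0.178 with it, and it was called with the block on the 6 arrays compared (adjusted p = 0.0352) and without untreated replicate 3, but in no other fit that left out 1 array. *Mtk*, the gene of Metchnikowin, an antimicrobial peptide that responds to Toll and IMD signalling, read 8.98, 9.29 and 8.67 after pinching, 10.84, 10.90 and 10.30 after clean injury and 6.22, 8.42 and 6.72 in untreated larvae. The steps within the pairs were close, -1.86, -1.62 and -1.64, and the untreated arrays spread far more. *Mtk* was called with the block on the 6 arrays and without untreated replicate 1 or 2 (difference -1.70, adjusted p = 0.00412 on 6 arrays, against 0.172 with the block on 9 arrays). It was higher than in untreated larvae by 1.86 after pinching (adjusted p = 0.0301) and by 3.56 after clean injury (adjusted p = 0.00123).

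*PGRP-SB1*, a secreted amidase that cleaves peptidoglycan, was at 6.34, 7.29 and 7.36 after pinching and at 7.49, 8.56 and 8.45 after clean injury, with 5.91, 5.89 and 6.76 in untreated larvae. Replicate 1 was the lowest in both injuries, and every pair stepped down, by -1.15, -1.28 and -1.09. It was called with the block on the 6 arrays compared and without untreated replicate 2 (adjusted p = 0.0157 on 6 arrays, against 0.11 with the block on 9 arrays). *CecB*, a cecropin gene, read 5.22, 5.09 and 5.40 after pinching, 6.004, 6.65 and 6.56 after clean injury and 5.32, 4.71 and 4.45 in untreated larvae. The groups did not overlap, but the difference of -1.17 (95% interval -1.68 to -0.66) did not pass with or without the block (adjusted p = 0.501 without and 0.252 with it). *edin*, a peptide gene named for its rise in infection, was at 4.67, 4.45 and 4.25 after pinching and at 5.28, 7.57 and 5.32 after clean injury, and its difference of -1.60 (adjusted p = 0.477 with the block) rested in large part on clean injury replicate 2.

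*Drs*, the gene of the antifungal peptide Drosomycin, was high after both injuries. It read 12.88, 13.24 and 13.06 after pinching, 13.27, 13.34 and 13.09 after clean injury and 5.96, 5.93 and 8.54 in untreated larvae. The ranges of both injuries overlapped, and untreated replicate 3 stood above the other untreated arrays. The difference was -0.17, and its 95% interval ran from -1.40 to 1.06. The width of that interval takes in the spread of the untreated arrays, which for *Drs* was far larger than that of either injury. In this fit the interval does not reach the difference of -2.48 measured for *DptB* and leaves a 2-fold difference in either direction possible. The arrays of both injuries themselves all lay between 12.88 and 13.34, and an interval from them alone is not given here. The *Drs* levels after injury were close to those of *RpL32*, and how well the arrays resolve differences at such levels was not tested. Against untreated larvae, *Drs* rose by 6.25 after pinching (adjusted p = 0.000145) and by 6.43 after clean injury (adjusted p = 0.000114). *Drsl2*, a *Drs* paralog, was at 7.05, 7.09 and 6.005 after pinching and at 7.43, 7.33 and 6.80 after clean injury (difference -0.47, 95% interval -1.07 to 0.13).

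Of the 13 antimicrobial peptide genes measured, 0 were called without the block, and 1, *DptB*, was lower with the block on all arrays, to which *AttD* and *Mtk* were added on the 6 arrays compared. At an unadjusted p under 0.05, 5 were lower and 0 higher, and the groups of the same 5 did not overlap, where over all probe sets 2.83% were lower without overlap and 2.36% higher. These 5 were *DptB*, *AttD*, *Mtk*, *CecB* and *edin*. The remaining genes were *Drs*, its paralogs *Drsl1* to *Drsl6* and *Def*, the gene of Defensin, and all of these but *Drsl5* had differences between -0.47 and 0.13. *Drsl5* was at 5.98, 3.10 and 2.97 after pinching and at 2.95, 3.21 and 2.81 after clean injury, so its difference of 1.02 came from pinching replicate 1 alone. *AttA* and the other peptide genes that have no probe set of their own in the annotation used were not analysed here. The median difference of the list was -0.17, which is the value of *Drs*, against -0.0044 over all probe sets. It ran from -1.17 without the 40% dimmest probe sets, a filter that removes members of the list, to -0.085 without pinching replicate 1.

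**Figure D2:**
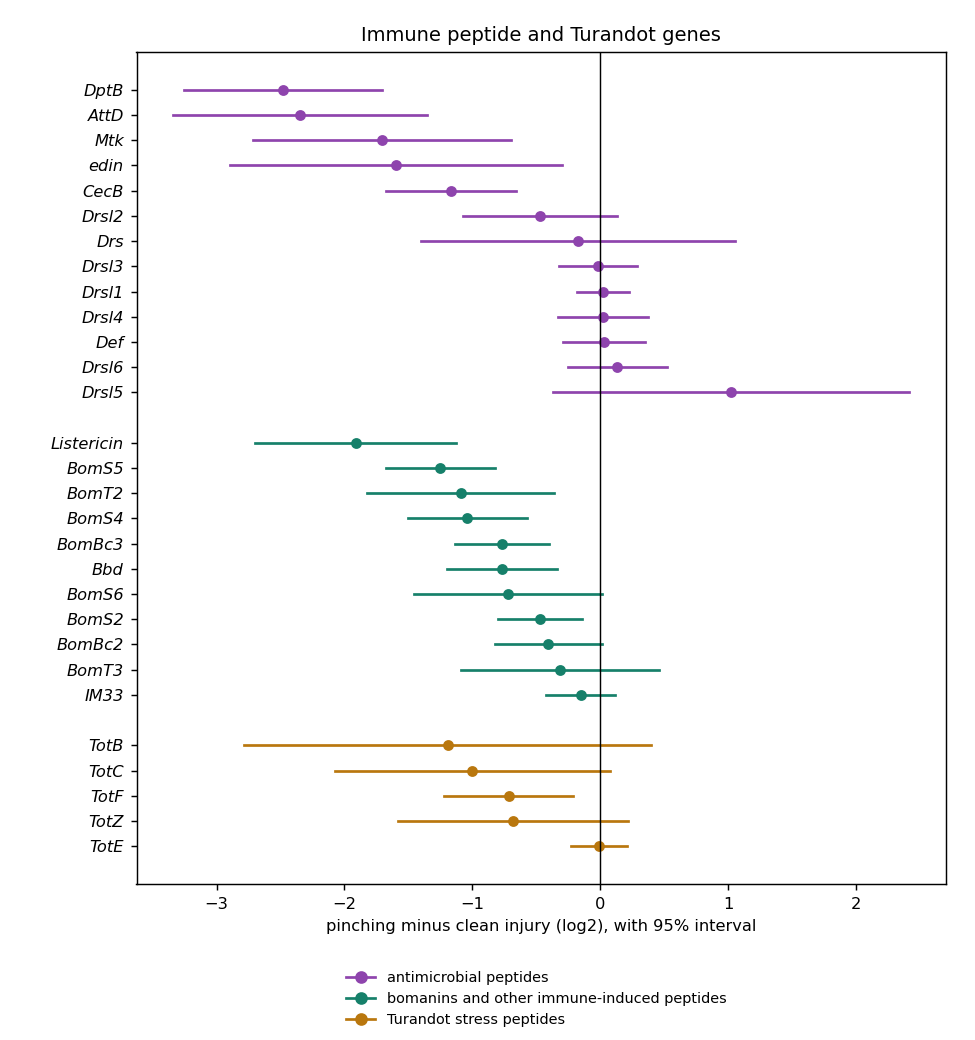
Difference between pinching and clean injury on the log2 scale (horizontal axis) for the antimicrobial peptide, bomanin and other immune-induced peptide, and Turandot genes measured, with the 95% interval of the limma fit without the block. *DptB*, *AttD* and *Listericin* lie farthest to the left, *Drs* has an interval that spans 0, and all 11 bomanins and other immune-induced peptides lie left of 0.

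The bomanins are short secreted peptides, targets of Toll signalling, that flies need against fungi and Gram-positive bacteria. Of the 11 bomanins and other immune-induced peptides measured, all 11 had a lower mean after pinching, and in all 11 each of the 3 same-number pairs was lower. Over all probe sets, 13.5% were lower in all 3 pairs and 11.2% were higher. Without the block 0 of the 11 were called and 7 had an unadjusted p under 0.05. With the block *BomS5* and *Listericin* were called lower and 10 had an unadjusted p under 0.05. Among all probe sets tested, 1.09% were lower at that p without the block and 2.57% with it. The median difference of the list was -0.77 and stayed between -0.95 and -0.60 under all alternatives tried. The members were read on the same arrays and are not independent, and 9 of them, all but *IM33* and *Listericin*, are bomanins or the linked gene *Bbd*.

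*BomS5* was at 9.60, 9.94 and 9.19 after pinching, 11.002, 10.96 and 10.52 after clean injury and 3.58, 3.43 and 3.39 in untreated larvae. Both injuries were far above the untreated arrays, and the pinching arrays lay below all clean injury arrays. The difference was -1.25 (SE 0.19), or 2.38-fold, with an adjusted p of 0.184 without and 0.0128 with the block. That call was lost without clean injury replicate 1 or 2 or pinching replicate 1 or 3, and without replicate 1 of every group (adjusted p = 0.558). Against untreated larvae it rose by 6.11 after pinching and by 7.36 after clean injury (adjusted p = 5.07e-08 after pinching and 9.54e-09 after clean injury).

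The other members did not pass with or without the block. The groups of *BomS4*, *BomBc3* and *Bbd* did not overlap, and those of the other 6 did. *BomS4* read 6.69, 7.54 and 7.01 after pinching and 8.14, 8.32 and 7.88 after clean injury (difference -1.04, 95% interval -1.51 to -0.57). *BomT2* read 8.83, 9.38 and 8.10 after pinching and 10.25, 10.13 and 9.20 after clean injury (difference -1.09, 95% interval -1.82 to -0.36), with an overlap of pinching replicate 2 and clean injury replicate 3. *BomBc3* read 7.63, 7.87 and 8.25 after pinching and 8.51, 8.90 and 8.64 after clean injury, a difference of -0.77. *Bbd*, or bombardier, which short bomanins need to be present in the hemolymph, differed by -0.77 as well, from 11.05, 11.56 and 10.80 after pinching against 12.02, 12.07 and 11.62 after clean injury. *BomS2*, at 10.25, 10.56 and 10.18 after pinching and 10.80, 11.04 and 10.55 after clean injury, differed by only -0.47, and *BomBc2* by -0.41. *IM33*, which was not called against untreated larvae after either injury, differed by -0.15. A probe set shared by *SPH93*, a serine protease homologue, and *RSG7*, named after its values were seen, was at 9.42, 9.82 and 9.25 after pinching and at 10.32, 10.19 and 10.01 after clean injury (difference -0.68). Each of the bomanins and *Bbd* rose against untreated larvae after both injuries, while the size of the difference between the injuries varied among them.

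**Figure D3:**
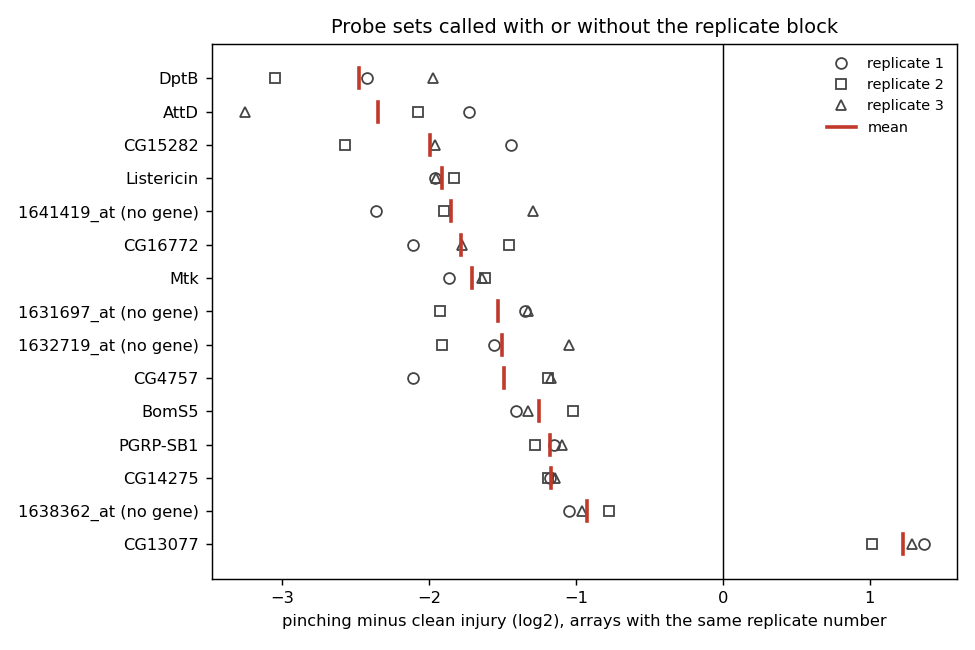
Difference between pinching and clean injury on the log2 scale (horizontal axis) within each same-number pair of arrays, for the 15 probe sets called in at least 1 of the fits without and with the replicate block. Points give the 3 pairs and the bar their mean. The 3 points of *Listericin*, *CG14275* and *PGRP-SB1* nearly coincide, whereas those of *DptB*, *AttD* and *CG15282* are spread over about 1 unit or more, and *CG13077* alone lies right of 0.

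Genes of the signalling pathways upstream of these peptides had small differences. Of 22 Toll pathway genes and 21 IMD pathway genes measured, 0 were called in either direction with or without the block, and each was within 0.5 of 0. At an unadjusted p under 0.05, 1 gene of each list was lower and 0 were higher. With the block, 4 Toll pathway genes and 1 IMD pathway gene were lower at that p, and 0 were higher. Over all probe sets, 1.09% were lower at that p without the block and 2.57% with it. In all 3 pairs, 9 Toll pathway genes were lower and 1 higher, and 5 IMD pathway genes were lower and 3 higher. The shares over all probe sets were 13.5% lower and 11.2% higher in all 3 pairs. The mean was lower after pinching for 17 Toll pathway genes and for 12 IMD pathway genes. The medians were -0.08 and -0.03. *Rel*, which encodes Relish, was at 8.82, 9.21 and 9.001 after pinching, 9.30, 9.46 and 9.23 after clean injury and 7.72, 8.06 and 7.94 in untreated larvae. Its difference of -0.32 (95% interval -0.62 to -0.02) did not pass after adjustment, and it was higher than in untreated larvae after both injuries, by 1.10 and by 1.43 (adjusted p = 0.000992 after pinching and 0.000201 after clean injury). *nec*, a serpin that restrains Toll activation, read 7.79, 7.997 and 7.96 after pinching and 8.48, 8.30 and 8.29 after clean injury (difference -0.44). *Tl*, the Toll receptor, differed by -0.43, *SPE*, which cleaves the Toll ligand into its active form, by -0.34, and *spz*, the gene of that ligand, by -0.18. In the IMD list, the inhibitors *PGRP-LB* and *pirk* differed by -0.10 and 0.03, and *imd* itself by -0.09.

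The Turandot genes encode secreted stress peptides, several of which need JAK-STAT signalling. *TotC* was at 9.48, 9.49 and 7.49 after pinching, 9.88, 10.30 and 9.28 after clean injury and 2.91, 2.20 and 2.23 in untreated larvae. *TotB* was at 7.07, 7.75 and 4.54 after pinching, 8.33, 8.09 and 6.52 after clean injury and 3.35, 2.82 and 2.91 in untreated larvae. Replicate 3 was the lowest of each injury for both genes, and the groups overlapped. Their differences of -1.001 (95% interval -2.08 to 0.08) and -1.19 (95% interval -2.79 to 0.40) shrank to -0.34 and -0.24 without pinching replicate 3. Of the 5 Turandot genes measured, 0 were called with or without the block. *TotF* alone had an unadjusted p under 0.05 without the block (difference -0.71). It was at 5.10, 4.63 and 4.11 after pinching and 5.17, 5.67 and 5.14 after clean injury. With the block, 3 of the 5 had such a p, all lower after pinching, where over all probe sets 2.57% were lower. The median of the list was -0.71, and it ranged from -1.16 without replicate 1 of every group to -0.34 without pinching replicate 3. Of 10 JAK-STAT pathway genes, 0 were called with or without the block, and their differences ran from -0.20 to 0.04. The cytokine gene *upd2* differed by -0.01, the receptor gene *dome* by -0.19 and the transcription factor gene *Stat92E* by -0.13.

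On the list of JNK signalling and epidermal wound genes, which holds 28, 0 were called with or without the block. At an unadjusted p under 0.05 there were 0 without the block and 1, lower after pinching, with it. With the block 2.57% of all probe sets were lower at that p. All 28 lay within 0.5 of 0, with a median of -0.07. *puc*, a JNK target and inhibitor, differed by -0.24 (95% interval -0.69 to 0.21). Among 15 melanization and clotting genes, 0 were called with or without the block. *Sp7*, a protease that acts in melanization, was at 7.52, 7.99 and 8.10 after pinching and at 8.16, 8.44 and 8.45 after clean injury (difference -0.48, 95% interval -0.87 to -0.09). The prophenoloxidase genes *PPO1* and *PPO2*, which are specific to crystal cells, had the opposite sign. *PPO1* was at 10.32, 10.34 and 10.86 after pinching and 10.08, 10.02 and 10.53 after clean injury (difference 0.30, 95% interval -0.11 to 0.71), and *PPO2* differed by 0.42 (95% interval -0.13 to 0.97), each higher after pinching in all 3 pairs. In whole larvae, fewer cells of a type and less RNA per cell cannot be told apart.

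Of 37 hemocyte and phagocytosis genes, 0 were called with or without the block. At an unadjusted p under 0.05, 1 was higher and 1 lower without the block. With it, 6 were lower and 1 higher, where over all probe sets 2.57% were lower and 1.05% higher. *He*, which encodes the hemocyte surface protein Hemese, was at 8.42, 8.91 and 8.56 after pinching and at 9.19, 9.24 and 8.80 after clean injury (difference -0.45), with overlapping groups. *Pxn*, the gene of Peroxidasin, a matrix enzyme made by hemocytes, was at 8.31, 7.85 and 8.11 after pinching, 7.84, 7.59 and 7.75 after clean injury and 8.37, 8.46 and 8.25 in untreated larvae (difference 0.36, 95% interval 0.06 to 0.66). The plasmatocyte gene *Hml* differed by 0.14 and the phagocytic receptor gene *NimC1* by -0.13. The 13 basement membrane genes had a median of 0.03, and the collagen genes *Col4a1* and *vkg* differed by 0.19 and 0.10.

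With the replicate block, 3 further named genes were lower after pinching. *CG15282* was at 8.51, 7.72 and 7.82 after pinching, 9.95, 10.29 and 9.78 after clean injury and 9.51, 8.82 and 9.76 in untreated larvae. Among the named genes called here, it was the one called lower than in untreated larvae after pinching and not after clean injury. Each pinching array was below each untreated array, and each clean injury array was above. The difference between the injuries was -1.99 (SE 0.27, 3.97-fold, adjusted p = 0.133 without and 0.0317 with the block), and against untreated larvae it fell by 1.35 after pinching (adjusted p = 0.0119) and differed by 0.64 after clean injury (adjusted p = 0.169). *CG14275*, read by a probe set whose probes can match more than 1 transcript, was at 7.64, 7.57 and 7.77 after pinching, 8.82, 8.76 and 8.92 after clean injury and 8.33, 7.76 and 7.70 in untreated larvae (difference -1.17, SE 0.16, adjusted p = 0.133 without and 0.0327 with the block). The arrays of each injury were tightly grouped, and the pinching arrays lay at the lower end of the untreated ones. Against untreated larvae, *CG14275* differed by -0.26 after pinching (adjusted p = 0.357) and rose by 0.90 after clean injury (adjusted p = 0.00644).

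*CG4757* was at 7.27, 8.57 and 7.997 after pinching, 9.38, 9.76 and 9.16 after clean injury and 5.88, 6.74 and 6.73 in untreated larvae. It lay above the untreated arrays after both injuries, more so after clean injury (difference -1.49, SE 0.33, adjusted p = 0.833 without and 0.0402 with the block). With the block, *CG15282* kept its call in 4, *CG4757* in 3 and *CG14275* in 2 of the 9 fits that left out 1 array. A further probe set called with the block has no gene in the annotation used. It read 7.37, 8.61 and 8.53 after pinching, 9.73, 10.51 and 9.83 after clean injury and 4.77, 6.18 and 5.96 in untreated larvae, a difference of -1.85 (adjusted p = 0.0109 with the block). A further 3 without a gene, with differences of -1.53, -1.50 and -0.93, were called with the block on the 6 arrays compared and not on 9. The one at -1.50 fell by 1.41 against untreated larvae after pinching (adjusted p = 0.0384) and differed by 0.09 after clean injury (adjusted p = 0.897).

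Several more of the genes with non-overlapping groups and the smallest p did not pass in any of these fits. *CG14567* was at 5.25, 5.28 and 5.55 after pinching and at 6.27, 6.97 and 6.43 after clean injury (difference -1.20, adjusted p = 0.184). *CG6429*, a predicted lysozyme gene, was at 2.45, 2.51 and 2.57 after pinching, 3.51, 4.44 and 3.39 after clean injury and 2.38, 2.43 and 2.43 in untreated larvae (difference -1.27, adjusted p = 0.422). It lay at the low end of the scale after pinching, and its level was not tested against background. *CG9877*, an abundant transcript, read 11.70, 11.62 and 11.83 after pinching and 12.42, 12.46 and 12.41 after clean injury (difference -0.71), and *CG14949* differed by -0.57.

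In detoxification, *Cyp6a8*, a cytochrome P450, was at 5.92, 6.35 and 6.19 after pinching, 7.28, 7.48 and 6.79 after clean injury and 8.57, 8.45 and 8.89 in untreated larvae. Both injuries lay below the untreated arrays, pinching the lower of them. The difference of -1.03 (95% interval -1.46 to -0.60) did not pass (adjusted p = 0.422 without and 0.168 with the block), while against untreated larvae *Cyp6a8* fell by 2.48 after pinching (adjusted p = 6.18e-05) and by 1.45 after clean injury (adjusted p = 0.00154). Of the 86 cytochrome P450 genes measured, 0 were called with or without the block, with a median of -0.01. At an unadjusted p under 0.05, 4 were lower and 1 higher without the block, against 1.09% and 0.57% of all probe sets. With it, 10 were lower and 1 higher, against 2.57% and 1.05%. *GstE3*, a glutathione S-transferase, was at 9.64, 10.04 and 9.65 after pinching and at 10.68, 10.96 and 10.29 after clean injury (difference -0.86), in a list of 36 with a median of -0.06. *MtnD*, a metallothionein that binds metals, was at 10.60, 10.59 and 9.92 after pinching, 11.35, 11.07 and 10.75 after clean injury and 8.29, 7.86 and 8.46 in untreated larvae (difference -0.69).

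In the cuticle, *Cpr65Aw*, a chitin-binding cuticle protein gene, was at 7.31, 7.79 and 7.64 after pinching, 8.53, 8.29 and 8.15 after clean injury and 10.17, 10.73 and 10.40 in untreated larvae. It fell after both injuries against untreated larvae (by 2.85 and by 2.11), and the difference between them of -0.74 (95% interval -1.13 to -0.35) did not pass. Of 105 cuticle protein genes measured, 0 were called with or without the block, and the median was 0.05. At an unadjusted p under 0.05, 3 were lower and 1 higher without the block, against 1.09% and 0.57% of all probe sets. With it, 5 were lower and 4 higher, against 2.57% and 1.05%. The 34 chitin synthesis and remodelling genes and the 24 peritrophic matrix and chitin-binding genes had medians of -0.05 and 0.02. *Idgf1*, an imaginal disc growth factor of the chitinase family, read 9.04, 9.06 and 9.28 after pinching and 9.40, 9.52 and 9.38 after clean injury (difference -0.31).

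In fat body metabolism and storage, *Lsd-1*, a perilipin of the lipid droplet, was at 8.82, 9.07 and 9.01 after pinching, 9.35, 9.42 and 9.43 after clean injury and 9.78, 9.69 and 9.91 in untreated larvae (difference -0.43, 95% interval -0.67 to -0.19, not called). *Tret1-1*, a trehalose transporter, was at 9.67, 10.12 and 9.93 after pinching and at 10.30, 10.61 and 10.43 after clean injury (difference -0.54). *Lip3*, a lipase gene known to respond to starvation, had the opposite sign, 0.75 with a 95% interval of -0.10 to 1.61. Of the 27 starvation and insulin-FOXO response genes, 0 were called with or without the block, with a median of -0.04. At an unadjusted p under 0.05, 4 were lower and 0 higher without the block, against 1.09% and 0.57% of all probe sets. With it, 7 were lower and 1 higher, against 2.57% and 1.05%. The 29 lipid metabolism genes had a median of -0.05. Of 16 unfolded protein response genes, which serve secretion, 15 had a lower mean after pinching. In all 3 pairs 10 were lower, where over all probe sets 13.5% were. The median was -0.19 and 0 were called with or without the block. At an unadjusted p under 0.05, 3 were lower without the block and 5 with it, and 0 were higher. The shares lower over all probe sets were 1.09% and 2.57%. *Hsc70-3*, the chaperone BiP of the endoplasmic reticulum, differed by -0.37 (95% interval -0.78 to 0.04), and *Sil1*, its exchange factor, by -0.80. The median of this list ran from -0.37 without pinching replicate 2 to -0.05 without pinching replicate 1.

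Other secreted and stress-related genes had differences that did not pass with or without the block. *Obp56a*, an odorant-binding protein gene, was at 9.50, 9.51 and 8.87 after pinching, 10.65, 10.47 and 9.49 after clean injury and 10.14, 10.19 and 9.98 in untreated larvae. Every pair was lower after pinching, and the arrays of both injuries overlapped (difference -0.91, 95% interval -1.53 to -0.30). It had the largest difference of 47 odorant-binding protein genes, whose median was 0.01. *Irc*, an immune-regulated catalase, was at 9.82, 10.27 and 10.17 after pinching, 10.41, 10.55 and 10.31 after clean injury and 8.77, 9.04 and 8.88 in untreated larvae (difference -0.34). It rose against untreated larvae after both injuries, by 1.19 and by 1.53 (adjusted p = 0.000727 after pinching and 0.000159 after clean injury).

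The secreted ferritin chains *Fer1HCH* and *Fer2LCH*, which store iron, likewise rose after both injuries and differed between them by -0.23 and -0.22, in a list of 13 iron handling genes with a median of -0.03. *ImpL2*, a secreted antagonist of insulin signalling, was at 8.06, 8.23 and 7.81 after pinching, 8.36, 8.46 and 8.25 after clean injury and 8.51, 8.73 and 8.46 in untreated larvae (difference -0.32). It fell by 0.53 against untreated larvae after pinching (adjusted p = 0.0319) and differed by -0.21 after clean injury (adjusted p = 0.354). The 24 oxidative stress response, 16 apoptosis and tissue damage response and 27 serpin genes had medians of -0.06, -0.02 and -0.03, and 0 of them were called. Housekeeping lists were narrow. The 41 cytosolic ribosomal protein genes ran from -0.08 to 0.20 and the 40 proteasome subunits from -0.12 to 0.22. The pair of replicate 1 lay below the others, with list medians of -0.23 for the proteasome and mitochondrial ribosomal protein genes in that pair, against 0.06 to 0.13 in the others.

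Fewer probe sets were higher than lower at an unadjusted p under 0.05 in the fits on all arrays, but the balance turned without clean injury replicate 1, to 203 higher and 179 lower without the block and 409 higher and 317 lower with it. *CG13077* was at 6.46, 6.35 and 7.62 after pinching, 5.10, 5.33 and 6.34 after clean injury and 6.70, 5.81 and 6.29 in untreated larvae. Its pinching arrays reached above the untreated range and its clean injury arrays below it. The difference of 1.22 (95% interval 0.35 to 2.10) passed with the block on the 6 arrays compared and without untreated replicate 1 (adjusted p = 0.0157 on 6 arrays, against 0.361 with the block on 9 arrays). *CG13947* was at 10.79, 10.14 and 10.85 after pinching, 9.98, 9.41 and 10.12 after clean injury and 8.67, 7.91 and 8.88 in untreated larvae. Every array was higher than its same-number partner, by 0.82, 0.72 and 0.73, and the difference of 0.76 had an adjusted p of 0.0511 with the block. *CG13947* was read by a probe set whose probes can match more than 1 transcript, and it was named after its values were seen.

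Among genes higher after pinching with non-overlapping groups, the one with the smallest p was *Cyp313a5*, a cytochrome P450, at 5.37, 5.28 and 5.55 after pinching and 4.87, 4.83 and 5.13 after clean injury (difference 0.45, 95% interval 0.19 to 0.71). *yellow-e*, of a family linked to pigmentation, read 8.48 to 8.57 after pinching, 8.03 to 8.28 after clean injury and 7.77 to 7.88 in untreated larvae (difference 0.37). Other genes of this selection, *CG42554*, *Fhos*, *CG42269*, *CkIIalpha-i1*, *Pvf3*, *Or59c*, *CG34286*, *CG32983* and *sNPF-R*, differed by 0.30 to 0.42, and none of them was called. A second probe set of *CG42269* differed by -0.04. *Fhos*, a formin, and *Pvf3*, a PDGF- and VEGF-related factor, each have further probe sets, whose differences were 0.06 and 0.09 for *Fhos* and 0.03 to 0.11 for *Pvf3*.

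Tissue marker lists differed little. The 29 muscle contractile genes had a median of 0.09, the highest of the 48 lists. Of these genes, 13 were higher and 1 lower in all 3 pairs, with 0 called with or without the block. Over all probe sets, 11.2% were higher and 13.5% lower in all 3 pairs. *Mlc2*, a myosin light chain, was at 7.90, 7.90 and 8.30 after pinching and at 7.65, 7.78 and 7.94 after clean injury (difference 0.25, 95% interval -0.14 to 0.63). The mean level of the muscle genes was 8.91 to 9.15 per array after pinching, 8.83 to 9.08 after clean injury and 9.20 to 9.27 in untreated larvae. Oxidative phosphorylation genes, 79 in number, had a median of 0.07, with 27 higher and 3 lower in all 3 pairs and 0 called. Both medians fell to about 0 without pinching replicate 3, at -0.0015 for muscle and -0.03 for oxidative phosphorylation. Midgut digestive enzymes had a median of 0.04 over 38 genes, of which 11 were higher and 0 lower in all 3 pairs, and nervous system genes a median of -0.03 over 28. The testis and spermatocyte list, a sign of the share of males and of gonad size, had a median of 0.03 over 36 genes, but its pairs had medians of -0.36, 0.12 and 0.33, and its mean level ran from 6.45 to 6.64 after pinching, from 6.17 to 6.97 after clean injury and from 6.20 to 6.31 in untreated larvae. The list of 15 dosage compensation and sex genes had a median of -0.13, and 14 of its genes had a lower mean after pinching. In all 3 pairs 6 were lower and 1 higher, and 0 were called with or without the block. At an unadjusted p under 0.05 with the block 3 were lower and 0 higher, where over all probe sets 2.57% were lower. What part these shifts have in the results was not tested.

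Some lists bear on handling in water or on a cold plate, whose part in the differences was not tested. The 5 cold response, 13 hypoxia response, 11 heat shock protein and 24 ion and water transport genes had medians of -0.08, -0.03, -0.07 and -0.05. Of these genes, 0 were called with or without the block. At an unadjusted p under 0.05, 0 of them passed without the block. With it, 4 ion and water transport, 1 cold response and 1 hypoxia response gene were lower and 0 were higher, where over all probe sets 2.57% were lower. In all 3 pairs, 7 ion and water transport genes were lower and 1 higher, where over all probe sets 13.5% were lower and 11.2% higher. All 5 cold response genes had a lower mean after pinching, and the pair medians of that list were -0.30, -0.27 and -0.06. Without replicate 1 of every group its median was -0.23. *Hsp26* differed by -0.08 and *Hsp27* by 0.01. A probe set shared by the heat shock genes *Hsp70Aa* and *Hsp70Ab*, which is on no list because it names more than 1 gene and was named after its values were seen, was at 4.79, 6.68 and 5.47 after pinching, 6.09, 7.34 and 6.99 after clean injury and 3.41, 4.07 and 4.61 in untreated larvae (difference -1.16, adjusted p = 0.361 with the block). The hypoxia-responsive growth factor gene *bnl* was at 3.50, 4.55 and 4.40 after pinching and at 4.51, 4.65 and 4.84 after clean injury (difference -0.52), with pinching replicate 1 apart from the rest. The 11 circadian clock and 29 neuropeptide genes had a median of -0.06 each. Of the 48 lists with 1302 genes in all, 41 had a median within 0.1 of 0. The median was below -0.1 in 7 lists and above 0.1 in 0. In the fit without the block, no member of 27 lists had an unadjusted p under 0.05 in either direction.

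**Figure D4:**
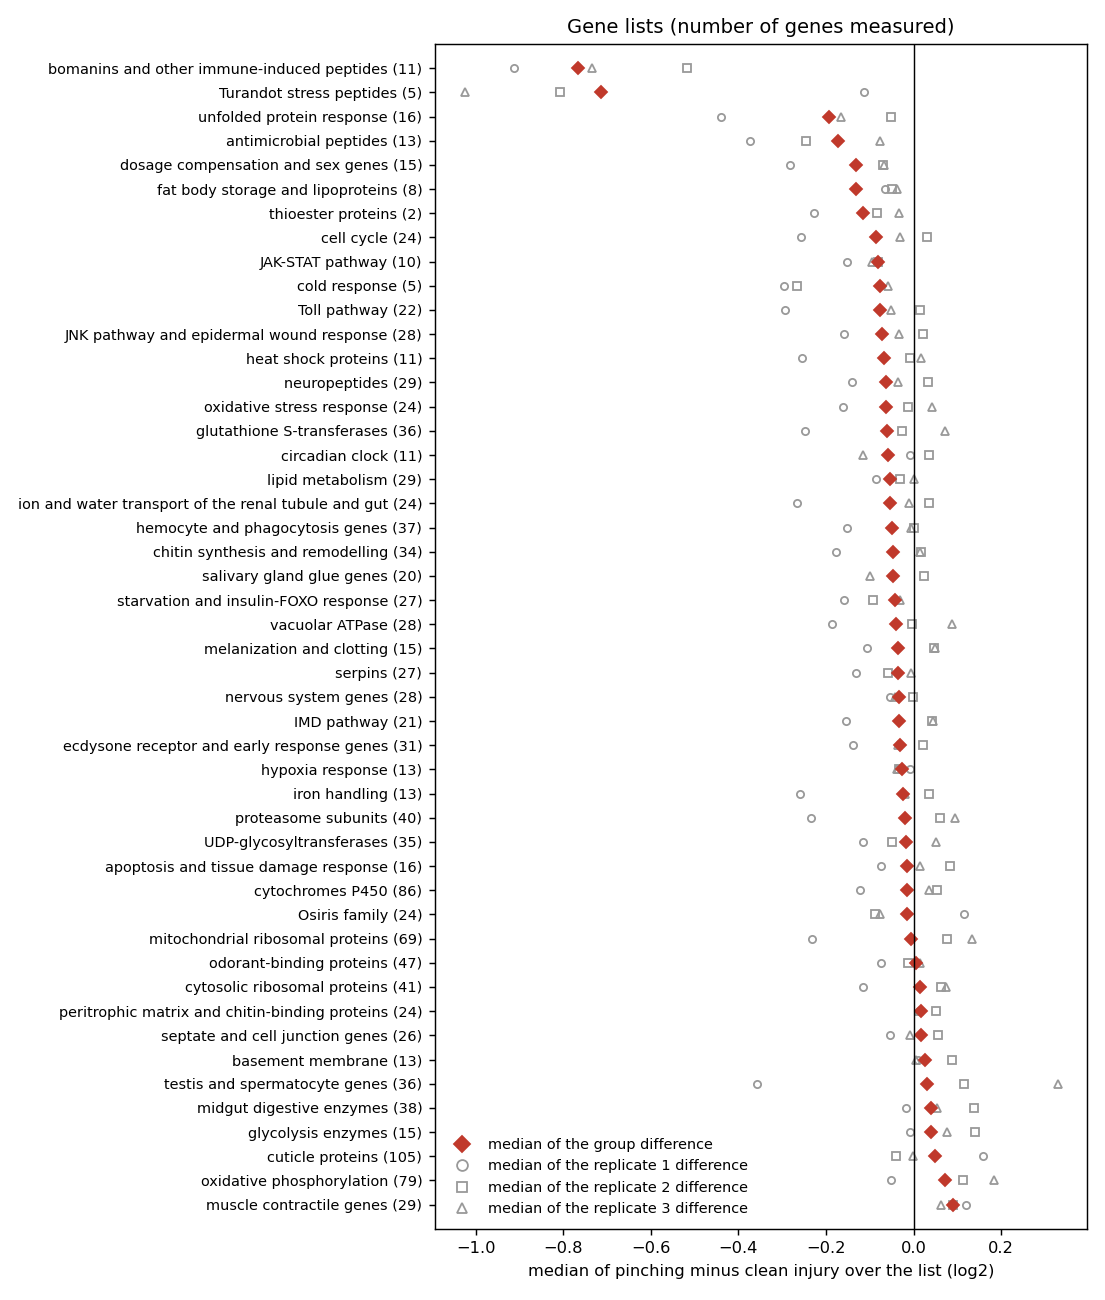
Median difference between pinching and clean injury on the log2 scale (horizontal axis) over the genes of each of 48 lists, with the number of genes measured in brackets. The filled diamond is the median of the group differences and the open symbols are the medians within each same-number pair. Bomanins and other immune-induced peptides (-0.77) and Turandot peptides (-0.71) lie apart on the left, and the muscle list (0.09) is the farthest right.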

How the data were processed

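RNA of whole larvae was labelled and hybridised to 9 Affymetrix Drosophila Genome 2.0 arrays, with 3 biological replicates each of pinched, clean-injured and untreated larvae, as the labels describe them. The values analysed here are the log2 signals deposited by the authors, 1 per probe set and array. The sources used here give no background correction or normalization and no detection calls, and the number of larvae per array is not given. Array medians lay between 4.94 and 5.08, and the number of arrays limits the precision.

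Of 18952 probe sets, 183 controls were left out and 18769 were tested in limma 3.58.1 (R 4.3.3) with a mean per group over all 9 arrays, so that untreated arrays contribute to the spread. P-values were two-sided and adjusted by the Benjamini-Hochberg method over all probe sets tested. Unless an adjusted p is given as with the block, it comes from the fit without the block. Fits that block on the replicate number, on 9 or on 6 arrays, and a Student's t-test as in the study's methods were alternatives. The labels number the replicates but do not say that a number pairs arrays. Arrays with the same number deviated from their group means together, with r = 0.19 to 0.55 over the 9 same-number pairs and -0.46 to 0.16 over the 18 others. The numbers were therefore taken to pair the arrays. Deviations within a group cancel, so the values of the 18 others are not independent of those of the 9. Code was tested on simulated data.

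Genes were named from the array annotation, with symbols checked against the RefSeq table (Release 6 plus ISO1 MT). One gene was named at 13647 probe sets, several at 402 and none at 4720. Where a listed gene had several probe sets, the one brightest on average was used. Named were the probe sets called without or with the block, the 12 with the smallest p in each direction among those with non-overlapping groups, up to 3 members per list by p, and *Drs*, *DptB*, *Mtk*, *TotB*, *TotC* and *RpL32*, and further members of the lists for background. *IM1*, *IM3* and *AttA* were not analysed here. The comparison and the gene lists were chosen with earlier results of these data known.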

Additional observations from a re-analysis of the deposited data

Results flagged for a closer look

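For *CG15282*, every array of both injuries lay outside the untreated range, on opposite sides. The means of *CG13077* (0.54 after pinching and -0.68 after clean injury) and *CG14275* (-0.26 and 0.90) also moved in opposite directions from the untreated level, with some arrays inside the untreated range. Values of *CG15282* follow. After pinching it was at 8.51, 7.72 and 7.82, each below the lowest untreated array (8.82), and after clean injury at 9.95, 10.29 and 9.78, each above the highest untreated array (9.76). The margin of clean injury replicate 3 was small. The difference between the injuries of -1.99 had an adjusted p from limma of 0.133 without and 0.0317 with the replicate block. Against untreated larvae, which both injuries share as controls, the change after pinching passed the test and that after clean injury did not (adjusted p = 0.0119 and 0.169).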

How the results depend on the processing

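The count of probe sets called lower after pinching was 1 in the limma fit without a block. It remained 1 after quantile normalization, after centring each array on its median, without the 40% dimmest probe sets, without probe sets that can match several transcripts, with an intensity trend and with a 2-fold minimum. It was 0 with only the 6 arrays compared and 0 in the methods' t-test. Leaving out 1 array gave 1 to 3, with 2 without untreated replicate 1, 3 without untreated replicate 2 and 2 without clean injury replicate 3. With the replicate block it was 8 on 9 arrays and 13 on 6 arrays, and leaving out 1 array in that fit gave 2 to 13. These were 12, 10 and 9 without untreated replicates 1, 2 and 3, 3, 3 and 13 without clean injury replicates 1, 2 and 3, and 2, 3 and 4 without pinching replicates 1, 2 and 3. Without replicate 1 of every group, an alternative chosen after seeing the data, the count was 0 without the block and 1 with it. The count of probe sets called higher was 0 throughout except with the replicate block on 6 arrays and with the block without untreated replicate 1, where it was 1. The cause of these changes was not tested.

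Of 164 named probe sets, 11 changed the sign of their difference under at least 1 alternative, and of the 60 with an unadjusted p under 0.05, 0 did. The 60 have a small p in these same values, so a change of sign was unlikely in them from the outset. Where groups do not overlap, leaving out 1 array cannot change the sign in the fit without the block. The list medians were less stable, since 34 of 48 changed sign under at least 1 alternative. At an unadjusted p under 0.05, the probe sets lower after pinching outnumbered those higher except without clean injury replicate 1 (without and with the block) and with the block without replicate 1 of every group. With 3 arrays per group, 1 of them set apart by some of its 5′ controls, and with no detection calls, small differences and low signals are the least certain.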

Other observations

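Some genes with a 2-fold difference varied widely between arrays of the same group, and they were named after their values were seen. *CG42680* was at 2.73, 2.66 and 2.41 after pinching, 6.67, 6.20 and 2.38 after clean injury and 2.80, 2.64 and 2.72 in untreated larvae, so that it stood high on clean injury replicates 1 and 2 alone (difference -2.48). *CG42792* was at 7.14, 6.11 and 5.27 after pinching and at 8.80, 9.78 and 6.26 after clean injury (difference -2.11). *CtsL3*, a cathepsin L family protease gene, was lowest on replicate 3 after both injuries, with 6.86, 7.13 and 3.65 after pinching and 7.81, 8.35 and 5.84 after clean injury (difference -1.45).

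Pinching replicate 1 alone was high for *Drsl5*, *CG14664* and *CG7924*. *CG14664* read 7.499, 3.78 and 3.73 after pinching and 3.69, 3.47 and 3.82 after clean injury, and *CG7924* read 6.22, 2.76 and 2.498 after pinching and 2.89, 2.35 and 2.49 after clean injury. The largest difference in the direction of pinching was that of *CG13230* (1.56), at 10.42, 9.70 and 11.42 after pinching, 7.95, 8.76 and 10.14 after clean injury and 11.10, 9.25 and 10.74 in untreated larvae. Its pinching arrays lay within or above the untreated range, and clean injury replicates 1 and 2 lay below it.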
